A study of Malus domestica with 6 samples.

Results

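Waxy apple exocarp, the smooth outer skin of the fruit, was compared among 3 varieties, AG94, AF42 and Gala, each represented by 1 RNA-seq library. The genes described were those of the authors' table with at least 50 total reads in at least 1 of these 3 libraries, which kept 899 of 1261 gene models. The series holds 6 varieties, 3 fully waxy and 3 fully russeted, grown at a Belgian research centre and sampled in October 2012. Skin strips 5 mm wide were cut from the fruit, freed of flesh, frozen and ground, and each library started from 3 µg of RNA and took 15 PCR cycles. Within the waxy group the labels give AG94 (CRAW/ma/AG94), AF42 (CRAW/Ma/AF42) and Gala, with no treatment, transgene or time course, and neither the number of fruits nor their ripeness is given in the sources used here. The russeted libraries enter no level or difference given here, and only the direction of the authors' deposited fold change is used, among the last observations.

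The epidermis of a waxy apple builds a cuticle, a cutin polyester filled and covered with wax. Wax is made from very-long-chain fatty acids, which an elongase complex lengthens and which are then turned into alkanes, alcohols and esters or left as acids, while triterpenoids form a further large share of apple wax. Cork cells make suberin instead, a related polyester with aromatic parts, from acyl chains oxidised by CYP86 enzymes and joined to glycerol by GPAT acyltransferases.

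With 1 library a variety there was no spread within a variety, so no test was made, and a difference between varieties cannot be told apart from one between fruits, stages or libraries. The AG94 library was the deepest, with 16.8 M mapped reads recovered from the deposited values, against 10.5 M for AF42 and 9.44 M for Gala. Listed genes held 9.38%, 7.09% and 9.73% of these mapped reads in AG94, AF42 and Gala, and a kept gene had a median of 226, 142 and 108 reads in the same order. Of the kept genes, 605 had at least 50 reads in all 3 libraries, 105 in AG94 only, 31 in AF42 only and 6 in Gala only. A gene kept through 1 library had to differ in read count, but with unequal depth not always in RPKM. Near the limit, 19 kept genes had 50 to 52 reads in their highest library and 19 removed genes had 47 to 49. The authors listed these genes for a difference between russeted and waxy skin, so genes that varied widely within waxy skin had less chance of being listed. Levels are given as RPKM, reads scaled to the length of the gene model and to the mapped reads of the library, and differences on the log2(RPKM + 1) scale, which understates the change of low genes. A gene was called highest or lowest in a variety when it lay at least 1 above or below both other varieties on that scale, and its gap is the distance to the nearer of them. Ratios of read counts carry exact 95% binomial intervals, which cover counting error only, since each variety has 1 library. PCR copies were not marked, so the intervals may be too narrow even for counting error. In ground skin, fewer cells of a type and less RNA per cell cannot be told apart.

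Most of the kept genes had like levels in the 3 waxy skins. The highest and lowest varieties lay less than 1 apart on the log2 scale in 502 genes (55.8%), and at least 2 apart in 74. Across genes, log2 levels correlated with r = 0.93 between AG94 and Gala, 0.90 between AG94 and AF42 and 0.90 between AF42 and Gala, as a description over the same 899 genes. By pairs, AG94 was at least 1 above AF42 in 114 genes (12.7%) and at least 1 below it in 102 (11.3%), and AG94 was above Gala in 124 (13.8%) and below it in 48 (5.34%). AF42 was above Gala in 158 genes (17.6%) and below it in 79 (8.79%). The split of AF42 against Gala turned with the scaling, to 101 above and 121 below with TMM factors and 108 above and 113 below with median-of-ratios factors. With either of these factors AG94 was above Gala in 93 genes and below it in 65.

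In all, 213 genes (23.7%) stood apart in at least 1 variety, and 15 of these did so in 2 varieties. AF42 had 50 highest genes (5.56%) and 55 lowest genes (6.12%). AG94 had 31 highest genes (3.45%) and 21 lowest genes (2.34%). Gala had 13 highest genes (1.45%) and 58 lowest genes (6.45%). The median kept gene lay 0.10 above the mean of the other 2 varieties in AG94, 0.16 above it in AF42 and 0.17 below it in Gala (-0.17). Scaling by TMM factors brought these medians to 0.04, -0.01 and 0.05, and with it the split became 23 highest and 39 lowest genes in Gala and 39 highest and 73 lowest in AF42. With median-of-ratios factors the split was 21 highest and 40 lowest in Gala and 41 highest and 72 lowest in AF42. Of the 31 genes highest in AG94, the most deeply read library, 20 had 50 reads in AG94 only.

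**Figure D1:**
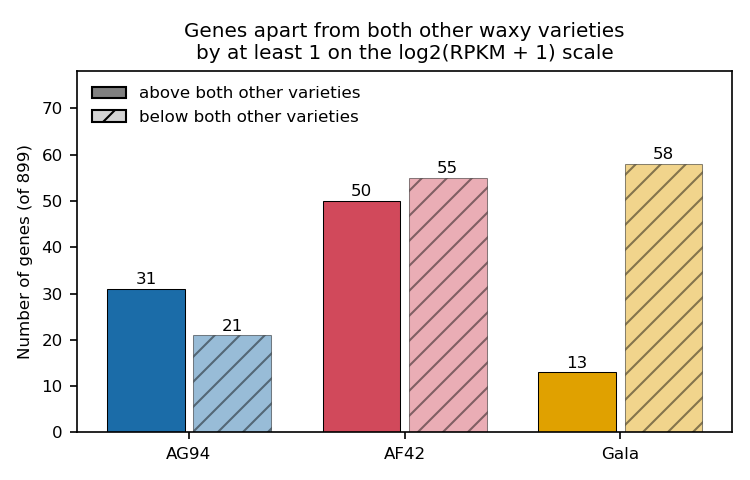
Number of the 899 kept genes that lay at least 1 above (solid bars) or at least 1 below (hatched bars) both other waxy varieties on the log2(RPKM + 1) scale, by variety (x axis). Gala had 13 genes above and 58 below, while AF42 had 50 and 55 and AG94 31 and 21.

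The most abundant listed transcript of waxy skin was MLP423 (MDP0000942516), a major latex protein-like gene of the Bet v 1 and pathogenesis-related 10 superfamily, whose members bind small hydrophobic ligands. It had 19722 RPKM in AF42, against 42429.7 RPKM in AG94 and 53417 RPKM in Gala, and ranked first among the listed genes in all 3 libraries. Its reads made up 13.3% of all reads on listed genes in AF42, 21.7% in AG94 and 26.4% in Gala. A second MLP423 gene, MDP0000294379, with 1682 RPKM in AF42, 1077 RPKM in AG94 and 2594 RPKM in Gala, did not share the low level in AF42.

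Ranks 2 and 3 went to MDP0000360438 and MDP0000360394, for which the table has no name. MDP0000360438 had 9420 RPKM in AF42, 25899 RPKM in AG94 and 25051 RPKM in Gala, with only 22.8% of its reads unique to it. MDP0000360394 had 9320 RPKM in AF42, 20671 RPKM in AG94 and 25242 RPKM in Gala. Like MLP423, both were lowest in AF42. The 3 leading genes took 1.31% of the mapped reads of AF42, 2.92% of those of AG94 and 3.53% of those of Gala.

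Next came SVB (MDP0000179031), a DUF538 gene whose Arabidopsis relative affects trichome branching, with 8464 RPKM in AF42, 4914 RPKM in AG94 and 3687 RPKM in Gala (35.1% unique reads). ELIP1 (MDP0000840536), an early light-induced chlorophyll-binding protein that protects plastids under strong light, had 7177 RPKM in Gala, 3352 RPKM in AG94 and 5686 RPKM in AF42. A second DUF538 gene, MDP0000278260, had 2931 RPKM in AG94, 3421 RPKM in AF42 and 2329 RPKM in Gala, one of 5 genes of the top 20 whose varieties lay less than 1 apart on the log2 scale. Another was bZIP44 (MDP0000448715), a transcription factor, which had 1248, 1238 and 1388 RPKM in AG94, AF42 and Gala.

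Some genes of lipid and isoprenoid metabolism were also among the 20. CER3 (MDP0000165547), which acts with CER1 in making wax alkanes, had 1503 RPKM in AG94, 746 RPKM in AF42 and 815 RPKM in Gala. ACBP6 (MDP0000305778), a cytosolic acyl-CoA-binding protein, had 1070 RPKM in AG94, 1382 RPKM in AF42 and 1361 RPKM in Gala. ACAT2 (MDP0000231084), the thiolase that opens the mevalonate pathway to sterols and triterpenoids, had 1132, 862 and 975 RPKM in AG94, AF42 and Gala. ACP4 (MDP0000752918), an acyl carrier of plastid fatty acid synthesis, had 1329 RPKM in AF42, 659 RPKM in AG94 and 847 RPKM in Gala, but only 6.19% of its reads were unique.

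RHA2B (MDP0000612469), a RING ubiquitin ligase of abscisic acid signalling in Arabidopsis, had 2606 RPKM in Gala, 1376 RPKM in AG94 and 829 RPKM in AF42. An HXXXD acyltransferase gene, MDP0000637737, had 1471 RPKM in AG94, 1632 RPKM in AF42 and 941 RPKM in Gala (32.6% unique reads). A DUF581 gene, MDP0000304459, had 629 RPKM in AF42, 1049 RPKM in AG94 and 1489 RPKM in Gala. Of the 20 genes, 12 were lowest in AF42 and 6 were highest there, 13 were among the 20 most abundant of every library, and together they held 3.40% of the mapped reads in AF42, 5.38% in AG94 and 6.18% in Gala.

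**Figure D2:**
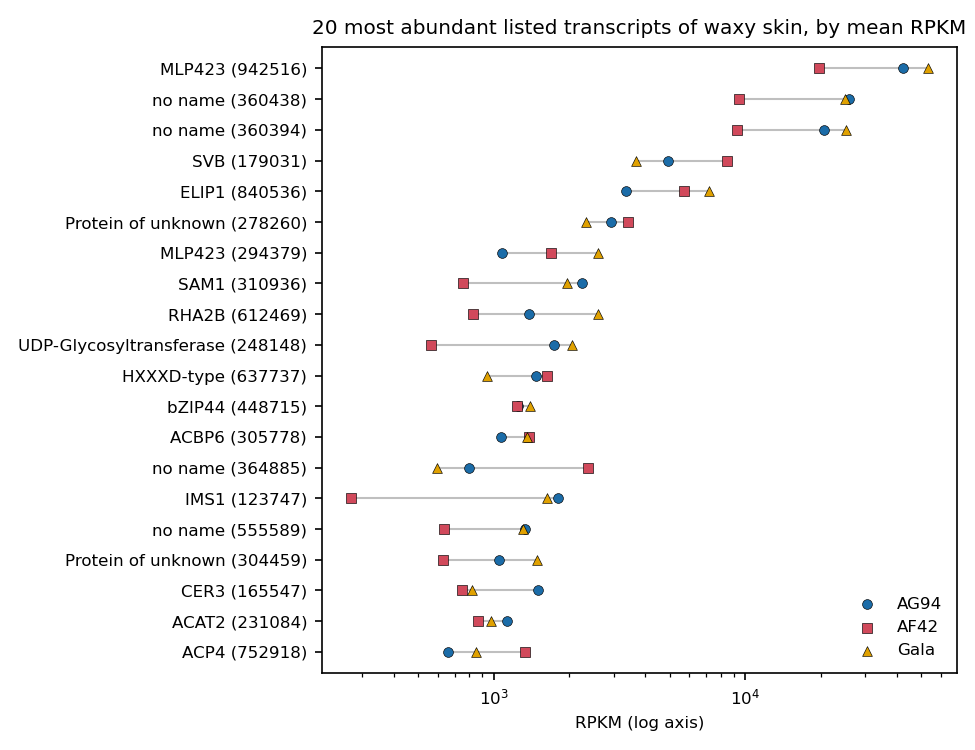
RPKM (log x axis) of the 20 listed transcripts with the highest mean over the 3 waxy libraries, 1 row a gene with the last digits of its identifier, circles for AG94, squares for AF42 and triangles for Gala. MLP423 leads with 19722 RPKM in AF42, 42429.7 RPKM in AG94 and 53417 RPKM in Gala, and IMS1 spans the widest range, from 269 RPKM in AF42 to 1796 RPKM in AG94.

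In AF42 skin several strongly expressed metabolic genes were far lower than in the other two. IMS1 (MDP0000123747), 2-isopropylmalate synthase, the entry enzyme of leucine synthesis, had 269 RPKM in AF42, against 1796 RPKM in AG94 and 1627 RPKM in Gala. Its level in AF42 was 0.166 times that in Gala (95% counting interval 0.160 to 0.171). A zinc-binding alcohol dehydrogenase gene, MDP0000874667, had 151 RPKM in AF42, against 819.5 RPKM in AG94 and 757 RPKM in Gala, with an interval of the ratio to Gala of 0.190 to 0.210. AG94 and Gala lay close together in both genes, and AF42 alone was apart.

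The same held for a pair of NmrA-like genes, of the Rossmann-fold reductase type. MDP0000751143 had 53.8 RPKM in AF42, against 323 RPKM in AG94 and 336 RPKM in Gala. MDP0000466251 had 50.6 RPKM in AF42, against 281 RPKM in AG94 and 297 RPKM in Gala. Another gene with the same Arabidopsis match, MDP0000371499, was instead lowest in Gala, with 29.1 RPKM there, against 141 RPKM in AG94 and 145 RPKM in AF42. Of 21 listed genes in the list of NmrA-like, zinc-binding dehydrogenase and Rossmann-fold reductase genes, 19 were kept. Of these, 5 were called lowest in AF42, 4 lowest in Gala and 1 highest in AG94. The shares over all kept genes were 6.12%, 6.45% and 3.45% in the same order.

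The largest gap of all was that of a thaumatin gene, MDP0000552328, of the pathogenesis-related 5 family, with 3.19 RPKM in AF42, against 181 RPKM in AG94 and 103 RPKM in Gala. This was 25 reads in AF42, against 2263 in AG94 and 724 in Gala, a gap of 4.63 (-4.63 on the log2 scale), though only 29.0% of its reads were unique. NADP-ME4 (MDP0000568928), a plastid malic enzyme that turns malate, the main acid of apple fruit, into pyruvate, had 1.96 RPKM in AF42 from 4 reads, against 133 RPKM in AG94 and 42.4 RPKM in Gala. It was at the same time highest in AG94, 3.15 times Gala (2.47 to 4.06). A thioesterase gene, MDP0000164161, had 23.5 RPKM in AF42, against 147 RPKM in AG94 and 138 RPKM in Gala (49.0% unique reads).

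SAM1 (MDP0000310936), which makes S-adenosylmethionine, the methyl donor and the precursor of ethylene, had 756 RPKM in AF42, against 2242 RPKM in AG94 and 1960 RPKM in Gala. A UDP-glycosyltransferase gene, MDP0000248148, of the enzymes that attach sugars to phenolics and hormones, had 563 RPKM in AF42, against 1733 RPKM in AG94 and 2039 RPKM in Gala. Of the 14 listed UDP-glycosyltransferase genes, 8 were lowest in AF42, 2 in AG94 and 4 in Gala, beside 28.4%, 26.9% and 44.9% of all 1261 listed genes in the same order of varieties. SPL8 (MDP0000803116), a squamosa promoter-binding factor, had 4.67 RPKM in AF42, against 22.8 RPKM in AG94 and 22.7 RPKM in Gala. HAT14 (MDP0000273608), a homeodomain-leucine zipper factor, had 1.21 RPKM in AF42, against 6.84 RPKM in AG94 and 10.1 RPKM in Gala. The other HAT14 gene, MDP0000222305, was far more abundant and in no class, with 85.8 RPKM in AF42, against 58.0 RPKM in AG94 and 71.0 RPKM in Gala. The sum of the pair was also in no class, with 87.0 RPKM in AF42, 64.9 RPKM in AG94 and 81.1 RPKM in Gala.

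Among the 50 genes highest in AF42, 5.56% of all kept genes, were 3 of 13 kept chaperone genes and 2 of 15 of the wax list. Another 5 were of the 27 kept genes of glycolysis, malate and fermentation. Of the 50, 12 reached 50 reads in AF42 only, and so passed the read filter through the library where they were high. A basic secretory protein gene, MDP0000235696, of a family of secreted proteins found in defence, had 12.5 RPKM in AF42 from 91 reads, against 0.26 RPKM in AG94 from 3 reads and 0.15 RPKM in Gala from 1 read. Its ratio to AG94 was 48.5 (16.1 to 239). An EF-hand calcium-binding gene, MDP0000120294, had 277 RPKM in AF42, against 28.4 RPKM in AG94 and 34.4 RPKM in Gala, 8.06 times Gala (7.19 to 9.06), with 20.7% unique reads and a gap of 3.33 on unique reads. TIC55-II (MDP0000150374), of the chloroplast inner envelope, had 6.81 RPKM in AF42, against 0.34 RPKM in AG94 and 0.34 RPKM in Gala, but only 5.56% of its reads were unique and on those the gap was 0.29.

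Chaperone and stress genes were highest in AF42 in 11 of 15 listed members, against 43.1% of all listed genes. Of the 13 kept, 3 were called highest there, beside 5.56% of all kept genes. The median of the 13 lay 0.69 above the mean of the other 2 varieties, beside 0.16 over all kept genes. With median-of-ratios factors 9 of the 15 and with TMM factors 8 of the 15 were highest in AF42. An HSP20 small heat shock gene, MDP0000314219, had 20.6 RPKM in AF42, against 3.19 RPKM in AG94 and 1.36 RPKM in Gala, 6.46 times AG94 (4.13 to 10.4). This HSP20 gene reached 50 reads in AF42 only, so it passed the read filter through the library where it was high. The called count and the median of the 13 rest in part on it, while the 11 of 15 covers all listed members. A DNAJ co-chaperone gene, MDP0000684769, had 16.96 RPKM in AF42, against 5.87 RPKM in AG94 and 0.77 RPKM in Gala (13.5% unique reads). The most abundant member, the DnaJ cysteine-rich domain gene MDP0000331298, was lowest in AF42, with 91.8 RPKM, against 115 RPKM in AG94 and 209 RPKM in Gala.

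Genes of glycolysis, malate and fermentation were highest in AF42 in 19 of 31 listed members, beside 43.1% of all listed genes, and in 17 of 31 with TMM factors. Of the 27 kept, 5 were called highest in AF42 and 3 lowest, beside 5.56% and 6.12% of all kept genes, with a median 0.46 above the mean of the other 2 varieties, beside 0.16 over all kept genes. The balance of calls turned with the scaling, to 4 highest and 5 lowest in AF42 with TMM or median-of-ratios factors, where the median was 0.29 or 0.32. A sugar isomerase gene, MDP0000793357, had 111 RPKM in AF42, against 40.1 RPKM in AG94 and 32.1 RPKM in Gala. ADH1 (MDP0000545249), an alcohol dehydrogenase of ethanol fermentation, had 28.8 RPKM in AF42, against 8.36 RPKM in AG94 and 8.66 RPKM in Gala (22.5% unique reads). A lactate/malate dehydrogenase family gene, MDP0000278198, had 26.9 RPKM in AF42, against 8.14 RPKM in AG94 and 8.45 RPKM in Gala. The pyruvate kinase family gene MDP0000193389 was also called highest in AF42, with 84 reads there, against 38 in AG94 and 26 in Gala. It reached 50 reads in AF42 only, so it passed the read filter through the library where it was high. The called count and the median rest in part on it, while the 19 of 31 covers all listed members. The list did not move as a block, since its most abundant member, the transketolase family gene MDP0000252036, had 386 RPKM in AF42, against 853 RPKM in AG94 and 761 RPKM in Gala.

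MES1 (MDP0000163690), an esterase that in Arabidopsis splits methyl esters of hormones, had 18.3 RPKM in AF42, against 4.01 RPKM in AG94 and 4.15 RPKM in Gala, 4.41 times Gala (2.92 to 6.87). ENODL14 (MDP0000569069), an early nodulin-like cupredoxin protein, had 15.1 RPKM in AF42, against 3.11 RPKM in AG94 and 3.05 RPKM in Gala, with 10.2% unique reads and a gap of 0.70 on those. A myb-like factor gene, MDP0000136727, had 32.3 RPKM in AF42, against 11.5 RPKM in AG94 and 7.41 RPKM in Gala. Over the list of 24 MYB and NAC genes AF42 was lowest in 12 and highest in 7, beside 28.4% and 43.1% of all listed genes. This myb-like gene thus ran against the 12 of its list that were lowest in AF42.

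**Figure D3:**
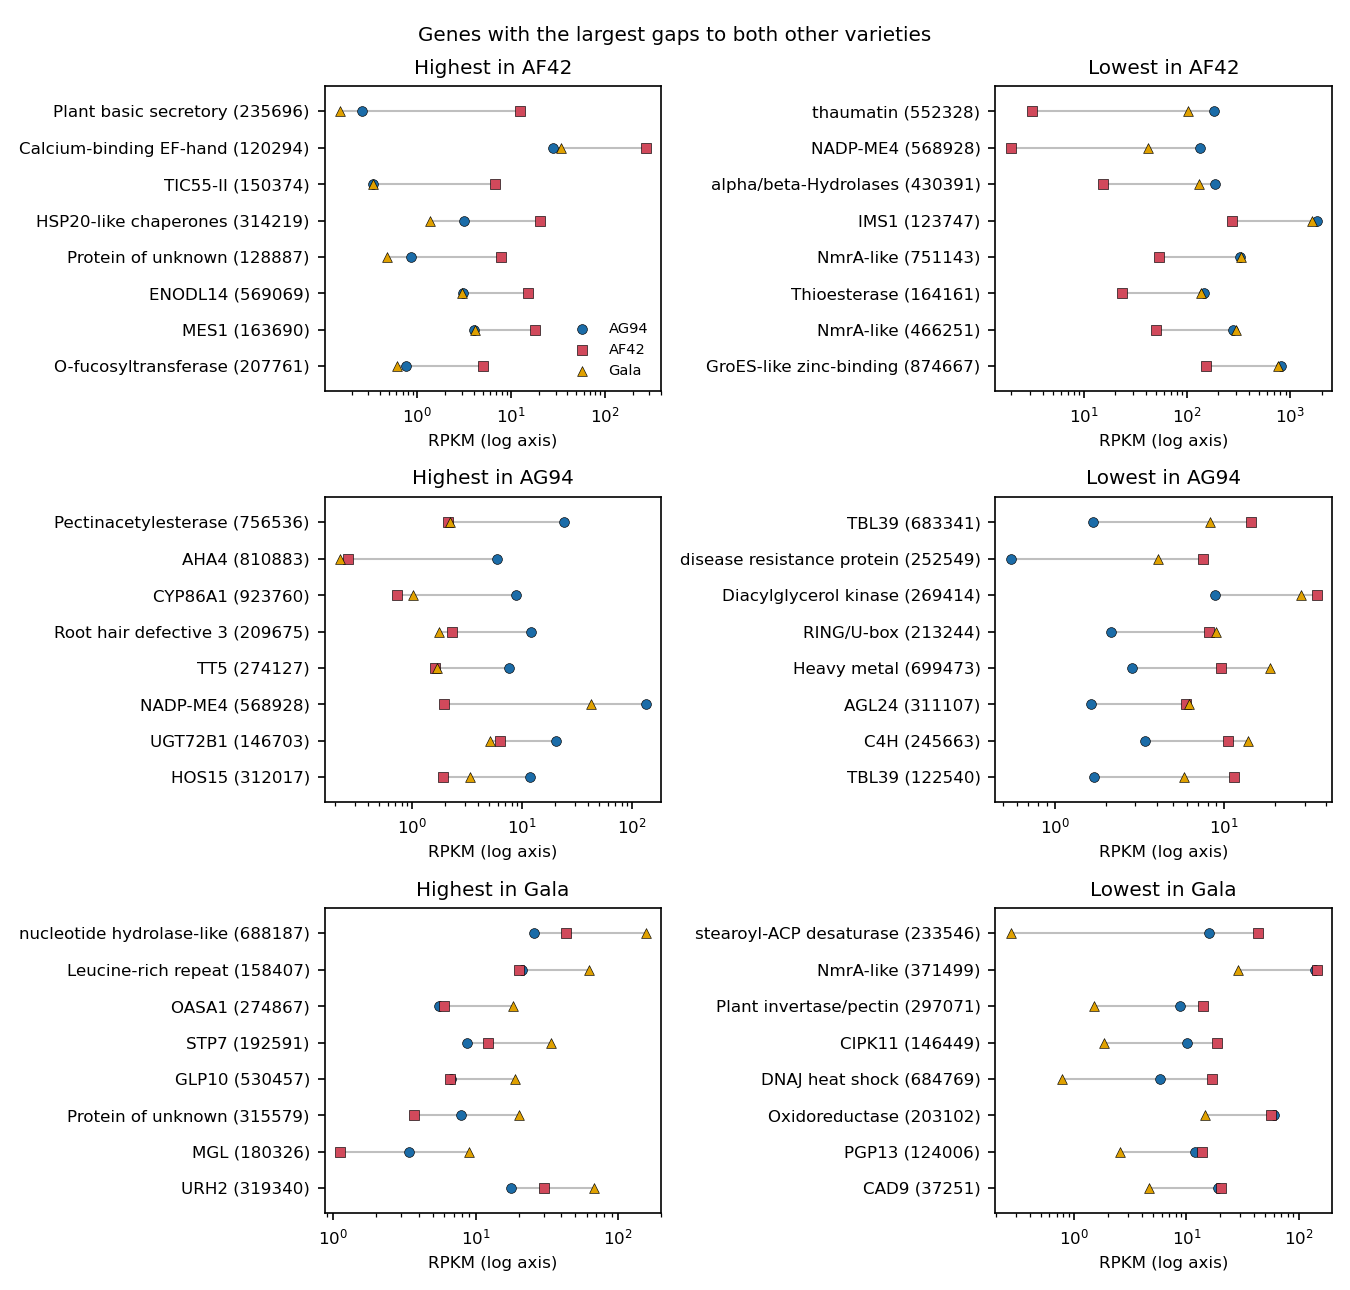
RPKM (log x axis) of the 8 named genes with the largest gaps in each of the 6 classes, 1 panel a class, circles for AG94, squares for AF42 and triangles for Gala, with the last digits of each identifier. The variety in a panel's title stands apart from the other two, as for thaumatin with 3.19 RPKM in AF42, against 181 RPKM in AG94 and 103 RPKM in Gala.

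AG94 skin stood out by suberin genes at low levels. Of the 12 listed suberin genes, 11 were highest in AG94 with each of the 3 scalings, beside 34.5% of all listed genes. The 10 kept had a median 1.06 above the mean of the other 2 varieties, beside 0.10 over all kept genes. Of the 10, 4 were called highest in AG94, beside 3.45% of all kept genes. Of these 4, MDP0000923760 and MDP0000306273 reached 50 reads in AG94 only, and passed the read filter through the library where they were high. The median of the kept genes rests in part on such members, while the 11 of 12 covers all listed suberin genes.

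CYP86A1 is the fatty acid hydroxylase that makes the ω-hydroxy acids of suberin. Its gene MDP0000879217 had 14.7 RPKM in AG94, against 4.38 RPKM in AF42 and 1.69 RPKM in Gala, 3.36 times AF42 (2.61 to 4.39). The second copy, MDP0000923760, had 8.87 RPKM in AG94 from 234 reads, against 0.73 RPKM in AF42 from 12 reads and 1.01 RPKM in Gala from 15 reads, 8.79 times Gala (5.22 to 16.0). Both copies were thus highest in AG94, and the first was also called lowest in Gala.

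CYP86B1, which acts on longer chains of suberin, had 2.18 RPKM in AG94, against 0.22 RPKM in AF42 and 0.37 RPKM in Gala in MDP0000306273, and 4.48 RPKM in AG94, against 3.04 RPKM in AF42 and 1.20 RPKM in Gala in MDP0000234292. GPAT5 (MDP0000150502), which joins the acyl chains to glycerol, had 3.14 RPKM in AG94 from 79 reads, against 1.08 RPKM in AF42 from 17 reads and 0.49 RPKM in Gala from 7 reads. GPAT5 too passed the read filter through AG94 only. MYB93, a suberin regulator of apple, did not reach 50 reads in any of the 3 libraries, with 37 reads in AG94, 6 in AF42 and 5 in Gala for MDP0000320772. The cork markers share genes with the suberin list, such as CYP86A1, so they are no separate result. Over the 7 listed cork marker genes, all of them highest in AG94, summed levels were 37.3 RPKM in AG94, 10.7 RPKM in AF42 and 5.79 RPKM in Gala. The part of cork cells in this difference was not tested.

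Another pair of members of the suberin list were at far higher levels and closer together. The ABC-2 type transporter gene MDP0000094058 had 178 RPKM in AG94, against 121 RPKM in AF42 and 77.9 RPKM in Gala. MDP0000149064, of the same family, had 94.2 RPKM in AG94, against 89.7 RPKM in AF42 and 54.5 RPKM in Gala.

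The polysaccharide cell wall list had 2 of its 18 kept genes called highest in AG94 and 2 lowest, and the membrane transporter list 2 of 32 highest and 2 lowest. Over all kept genes 3.45% were highest and 2.34% lowest in AG94. AHA4 (MDP0000810883), a plasma membrane proton pump, had 5.84 RPKM in AG94 from 283 reads, against 0.26 RPKM in AF42 from 8 reads and 0.22 RPKM in Gala from 6 reads, 22.1 times AF42 (11.1 to 51.8). A pectin acetylesterase gene, MDP0000756536, of the enzymes that remove acetyl groups from pectin, had 23.9 RPKM in AG94, against 2.11 RPKM in AF42 and 2.23 RPKM in Gala, with 12.5% unique reads and a gap of 1.56 on those. TT5 (MDP0000274127), chalcone isomerase of flavonoid synthesis, had 7.62 RPKM in AG94, against 1.61 RPKM in AF42 and 1.67 RPKM in Gala (28.9% unique reads). UGT72B1 (MDP0000146703), a glycosyltransferase of phenolics, had 20.5 RPKM in AG94, against 6.24 RPKM in AF42 and 5.06 RPKM in Gala, 3.28 times AF42 (2.63 to 4.14). GSTU8 (MDP0000320982), a tau-class glutathione transferase, had 81.9 RPKM in AG94, against 32.6 RPKM in AF42 and 21.1 RPKM in Gala, the most abundant of these genes. AHA4, the pectin acetylesterase gene and TT5 reached 50 reads in AG94 only, so they passed the read filter through the library where they were high. The counts of the cell wall and transporter lists rest in part on such members.

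HOS15 (MDP0000312017), a WD40 repeat protein of chromatin repression, had 11.8 RPKM in AG94, against 1.91 RPKM in AF42 and 3.36 RPKM in Gala, but only 3.07% of its reads were unique and on those the sign turned, with a gap of -0.16. NAC058 (MDP0000130785), a NAC transcription factor, had 3.15 RPKM in AG94 from 59 reads, against 0.60 RPKM in AF42 from 7 reads and 0.76 RPKM in Gala from 8 reads. AG94 was highest in 14 of the 24 listed MYB and NAC genes, beside 34.5% of all listed genes, and in 12 with either other scaling. Of the 14 kept, NAC058, MYB102 and NAC038 (3) were called highest in AG94, beside 3.45% of all kept genes. These 3 reached 50 reads in AG94 only, so they passed the read filter through the library where they were high. MYB94 (MDP0000149535), a regulator of cuticular wax, had 51.6 RPKM in AG94, against 30.9 RPKM in AF42 and 18.8 RPKM in Gala, so it stood well above NAC058 in level. MYB42 (MDP0000787808), the most abundant of the list, had 120 RPKM in AG94, 76.8 RPKM in AF42 and 127 RPKM in Gala.

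Genes lowest in AG94 were few. TBL39, of a family that places acetyl groups on wall polysaccharides, was low in both of its copies. MDP0000683341 had 1.69 RPKM in AG94, against 14.5 RPKM in AF42 and 8.26 RPKM in Gala, and MDP0000122540 had 1.70 RPKM in AG94, against 11.4 RPKM in AF42 and 5.81 RPKM in Gala. A TIR-NBS-LRR disease resistance gene, MDP0000252549, had 0.55 RPKM in AG94 from 41 reads, against 7.46 RPKM in AF42 from 348 reads and 4.10 RPKM in Gala from 172 reads, 0.134 times Gala (0.0931 to 0.190). C4H (MDP0000245663), cinnamate 4-hydroxylase of phenylpropanoid synthesis, had 3.42 RPKM in AG94, against 10.5 RPKM in AF42 and 13.8 RPKM in Gala. The other C4H gene, MDP0000602841, was instead called lowest in Gala, with 9.91 RPKM in AG94, 14.2 RPKM in AF42 and 3.14 RPKM in Gala (21.6% unique reads), and the sum of the pair was in no class. AGL24 (MDP0000311107), a MADS-box factor known for flowering in Arabidopsis, had 1.64 RPKM in AG94, against 5.98 RPKM in AF42 and 6.19 RPKM in Gala. A diacylglycerol kinase family gene, MDP0000269414, had 8.82 RPKM in AG94, against 35.1 RPKM in AF42 and 28.5 RPKM in Gala.

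Gala skin was set apart by low levels of wax and cuticle genes. Of the 15 genes of fatty acid elongation and wax, all kept, 13 were lowest in Gala and 0 highest, beside 44.9% and 22.8% of all listed genes. Their median lay 1.03 below the mean of the other 2 varieties (-1.03), beside -0.17 over all kept genes. With TMM or median-of-ratios factors 11 of the 15 were lowest in Gala, 1 was highest, and the median was -0.77 or -0.79. In single genes the steps were mostly under the gap of 1. Of the 15, 3 were called lowest in Gala, beside 6.45% of all kept genes, and 2 with either other scaling.

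The genes of the elongase condensing enzymes were lowest in Gala with each of the 3 scalings. KCS10 (MDP0000134273) had 119 RPKM in Gala, against 188 RPKM in AG94 and 529 RPKM in AF42, and was called highest in AF42, 2.82 times AG94 (2.72 to 2.92). The second KCS10 gene, MDP0000235280, had 76.7 RPKM in Gala, against 114 RPKM in AG94 and 160 RPKM in AF42. KCS6 (MDP0000392495), the main condensing enzyme of cuticular wax in Arabidopsis, had 128 RPKM in Gala, against 267 RPKM in AG94 and 198 RPKM in AF42. PAS2 (MDP0000337353), the dehydratase of the complex, had 199 RPKM in Gala, against 291 RPKM in AG94 and 271 RPKM in AF42 (40.2% unique reads). CER10 (MDP0000062802), its reductase, had 34.1 RPKM in Gala, against 38.7 RPKM in AG94 and 57.4 RPKM in AF42 (34.2% unique reads), and was not lowest in Gala with TMM factors.

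At the later steps, the WSD1-like wax ester synthase genes were called lowest in Gala. MDP0000701887 had 60.5 RPKM in Gala, against 168 RPKM in AG94 and 160 RPKM in AF42, and MDP0000195926 had 17.2 RPKM in Gala, against 55.6 RPKM in AG94 and 50.7 RPKM in AF42. A fatty acid hydroxylase superfamily gene, MDP0000477496, of the family of CER1 and CER3, had 60.5 RPKM in Gala, against 88.5 RPKM in AG94 and 275 RPKM in AF42, where it was called highest (42.4% unique reads). CER1 (MDP0000461409) was low in all 3, with 2.21 RPKM in Gala, 1.40 RPKM in AG94 and 4.38 RPKM in AF42. CER3 was the exception among abundant wax genes, with 815 RPKM in Gala, close to 746 RPKM in AF42 and below 1503 RPKM in AG94.

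Among genes of export and cutin, both ABCG11 genes and GPAT6 were lowest in Gala. ABCG11, the transporter that carries cutin and wax precursors out of the epidermis, had 61.8 RPKM in Gala, against 112 RPKM in AG94 and 184 RPKM in AF42 in MDP0000200335. Its second gene, MDP0000248808, had 4.67 RPKM in Gala, against 10.5 RPKM in AG94 and 14.5 RPKM in AF42. GPAT6 (MDP0000479163), the acyltransferase of cutin monomers, had 158 RPKM in Gala, against 238 RPKM in AG94 and 249 RPKM in AF42. The list of cutin and GDSL lipase genes as a whole was mixed, with 3 of 5 listed members lowest in Gala and 1 highest there, and 0 of the 4 kept called lowest in Gala. The cuticle markers share genes with the wax and cutin lists, such as CER3, the WSD1-like genes and GPAT6, so they are no separate result. Over the 14 cuticle marker genes, 12 of them lowest in Gala and 10 with either other scaling, summed levels were 1703 RPKM in Gala, 3046 RPKM in AG94 and 2664 RPKM in AF42. All 14 cuticle markers of the labelled tissue had reads in every library, from 35 reads upward.

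**Figure D4:**
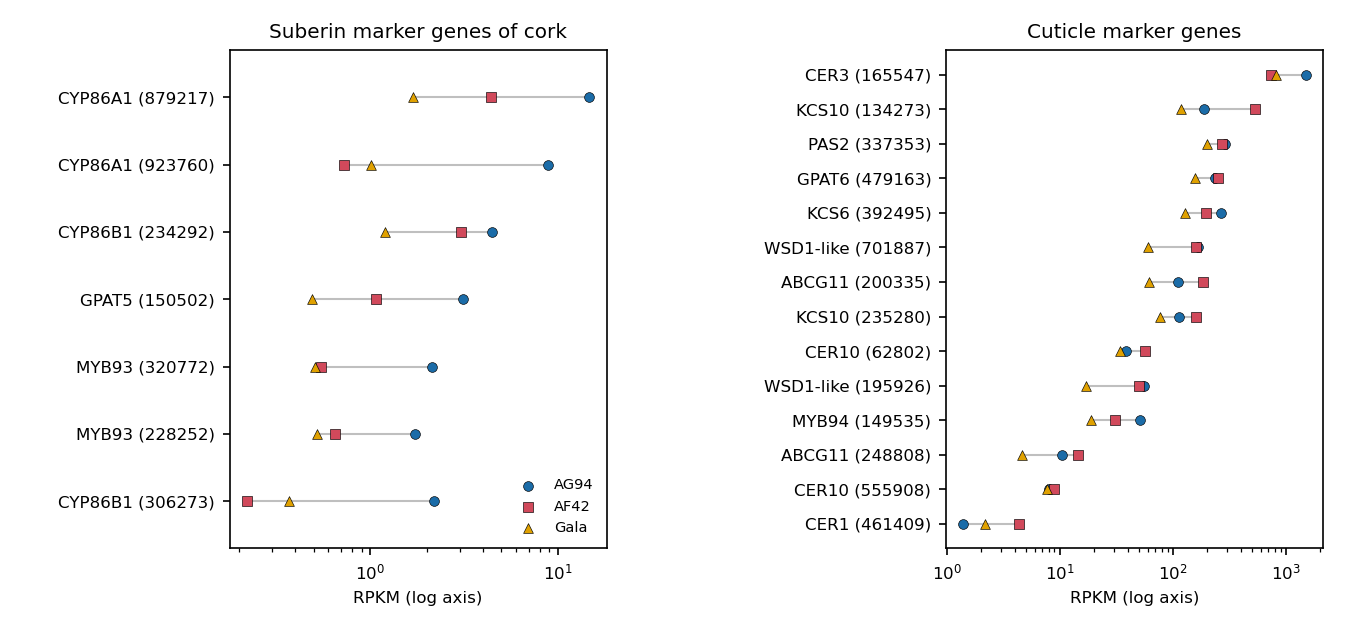
RPKM (log x axis) of the 7 listed suberin marker genes of cork (left) and the 14 cuticle marker genes (right), 1 row a gene, circles for AG94, squares for AF42 and triangles for Gala. All 7 cork markers are highest in AG94, and 12 of the 14 cuticle markers are lowest in Gala (10 with TMM or median-of-ratios factors).

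Genes of terpenoids and carotenoids were mixed. The most abundant triterpene cyclase gene, MDP0000227287, ran with the wax genes, with 599 RPKM in Gala, against 1037 RPKM in AG94 and 831 RPKM in AF42. CYP716A1 (MDP0000440922), of the P450 family that oxidises triterpenes, had 411 RPKM in Gala, against 349 RPKM in AG94 and 362 RPKM in AF42. It did not share the low level in Gala. Of the 11 listed terpenoid and carotenoid genes, 4 were lowest in Gala and 5 in AF42, beside 44.9% and 28.4% of all listed genes, and the median of the 10 kept lay at -0.02 in Gala. Their summed level was 2189 RPKM in Gala, 2698 RPKM in AG94 and 2344 RPKM in AF42.

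The gene with the largest gap in Gala was a stearoyl-ACP desaturase, MDP0000233546, of the enzymes that place the first double bond in plastid fatty acids. It had 0.27 RPKM in Gala from 3 reads, against 16.0 RPKM in AG94 from 319 reads and 43.3 RPKM in AF42 from 539 reads, a ratio to AG94 of 0.0167 (0.00342 to 0.0492). The enolase gene ENO2 (MDP0000238942), of glycolysis, had 6.03 RPKM in Gala, against 47.9 RPKM in AG94 and 23.5 RPKM in AF42. A pair of lactate/malate dehydrogenase genes with another Arabidopsis match than MDP0000278198 was also low in Gala, MDP0000143956 with 3.82 RPKM in Gala, against 15.1 RPKM in AG94 and 23.6 RPKM in AF42, and MDP0000568449 with 3.68 RPKM in Gala, against 12.6 RPKM in AG94 and 20.6 RPKM in AF42. CAD9 (MDP0000037251), of the cinnamyl alcohol dehydrogenase family of monolignol synthesis, had 4.60 RPKM in Gala, against 19.2 RPKM in AG94 and 20.2 RPKM in AF42. PGP13 (MDP0000124006), a P-glycoprotein transporter of a family that includes auxin carriers, had 2.55 RPKM in Gala, against 11.9 RPKM in AG94 and 13.8 RPKM in AF42. In all of these genes Gala was below both AG94 and AF42.

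Some of the genes with large gaps in Gala rested on shared reads. A pectin methylesterase inhibitor gene, MDP0000297071, had 1.49 RPKM in Gala, against 8.84 RPKM in AG94 and 14.0 RPKM in AF42, with 5.17% unique reads and a gap of -0.39 on those. CIPK11 (MDP0000146449), a kinase regulated by calcium sensors, had 1.83 RPKM in Gala, against 10.1 RPKM in AG94 and 18.6 RPKM in AF42, with 11.2% unique reads and a gap of -0.79 on those. GSTF13 (MDP0000169428), a phi-class glutathione transferase, had 1.52 RPKM in Gala, against 7.31 RPKM in AG94 and 13.2 RPKM in AF42, with 27.3% unique reads and a gap of -0.48 on those.

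The 13 genes highest in Gala were mostly of moderate level. A nucleotide alpha hydrolase-like gene, MDP0000688187, had 157 RPKM in Gala, against 25.8 RPKM in AG94 and 43.1 RPKM in AF42, 3.64 times AF42 (3.16 to 4.21). A leucine-rich repeat receptor kinase gene, MDP0000158407, had 62.6 RPKM in Gala, against 21.2 RPKM in AG94 and 20.1 RPKM in AF42. A pair of sulfur amino acid enzymes was among them. OASA1 (MDP0000274867), the last enzyme of cysteine synthesis, had 18.2 RPKM in Gala, against 5.54 RPKM in AG94 and 5.95 RPKM in AF42. MGL (MDP0000180326), methionine gamma-lyase, which degrades methionine, had 9.02 RPKM in Gala, against 3.39 RPKM in AG94 and 1.11 RPKM in AF42. URH2 (MDP0000319340), a nucleoside hydrolase, had 67.4 RPKM in Gala, against 17.8 RPKM in AG94 and 30.2 RPKM in AF42, while the sum of both URH2 genes was in no class. STP7 (MDP0000192591), a monosaccharide transporter, had 33.7 RPKM in Gala, against 8.63 RPKM in AG94 and 12.2 RPKM in AF42, with 7.36% unique reads and a gap of 0.19 on those.

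Of the 5 listed genes of the green flesh list, 3 were highest in Gala, among them ELIP1 in both copies, and 2 were highest in AF42, beside 22.8% and 43.1% of all listed genes. The pair highest in AF42, PsbP family genes of photosystem II, did not reach 50 reads in any of the 3 libraries. The second ELIP1 gene, MDP0000542944, had 148 RPKM in Gala, against 90.1 RPKM in AG94 and 99.0 RPKM in AF42. Summed over the 5 listed genes the level was 7719 RPKM in Gala, 3702 RPKM in AG94 and 6082 RPKM in AF42. ELIP1, which light induces, made up most of this sum. Vascular markers were highest in AF42 in 9 of 12 listed genes, beside 43.1% of all listed genes, and in 7 of 12 with either other scaling, and their summed levels, led by CCR1 (MDP0000322755), a reductase of monolignol synthesis, were 529.5 RPKM in AF42, 1093 RPKM in AG94 and 860 RPKM in Gala. Their part in the differences above was not tested.

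Across the 23 function lists, medians spread widest in Gala, from -1.26 over 3 glutathione transferases to 0.88 over 7 genes of the MLP-like, thaumatin and germin list. Glutathione transferases were too few to read a direction from. The 14 kept cytochrome P450 genes, the CYP86 genes among them, had a median of 0.57 in AG94, 0.08 in AF42 and -0.89 in Gala. HXXXD acyltransferases, a family that esterifies phenolics and fatty alcohols, had a median of 0.76 in AG94, -0.40 in AF42 and -0.53 in Gala over 9 kept genes. Of these, 1 was called lowest in AF42, beside 6.12% of all kept genes, and 4 with TMM or median-of-ratios factors. The added calls, MDP0000178344, MDP0000120594 and MDP0000120595, share the Arabidopsis match of the called gene and had 14.8%, 11.9% and 12.1% unique reads. That called gene, MDP0000272499, had 11.8 RPKM in AF42, against 50.1 RPKM in AG94 and 45.2 RPKM in Gala. Lists near the level of all genes included membrane transporters, protein kinases and ribosome and RNA processing, with medians between -0.29 and 0.29 in the 3 varieties.

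**Figure D5:**
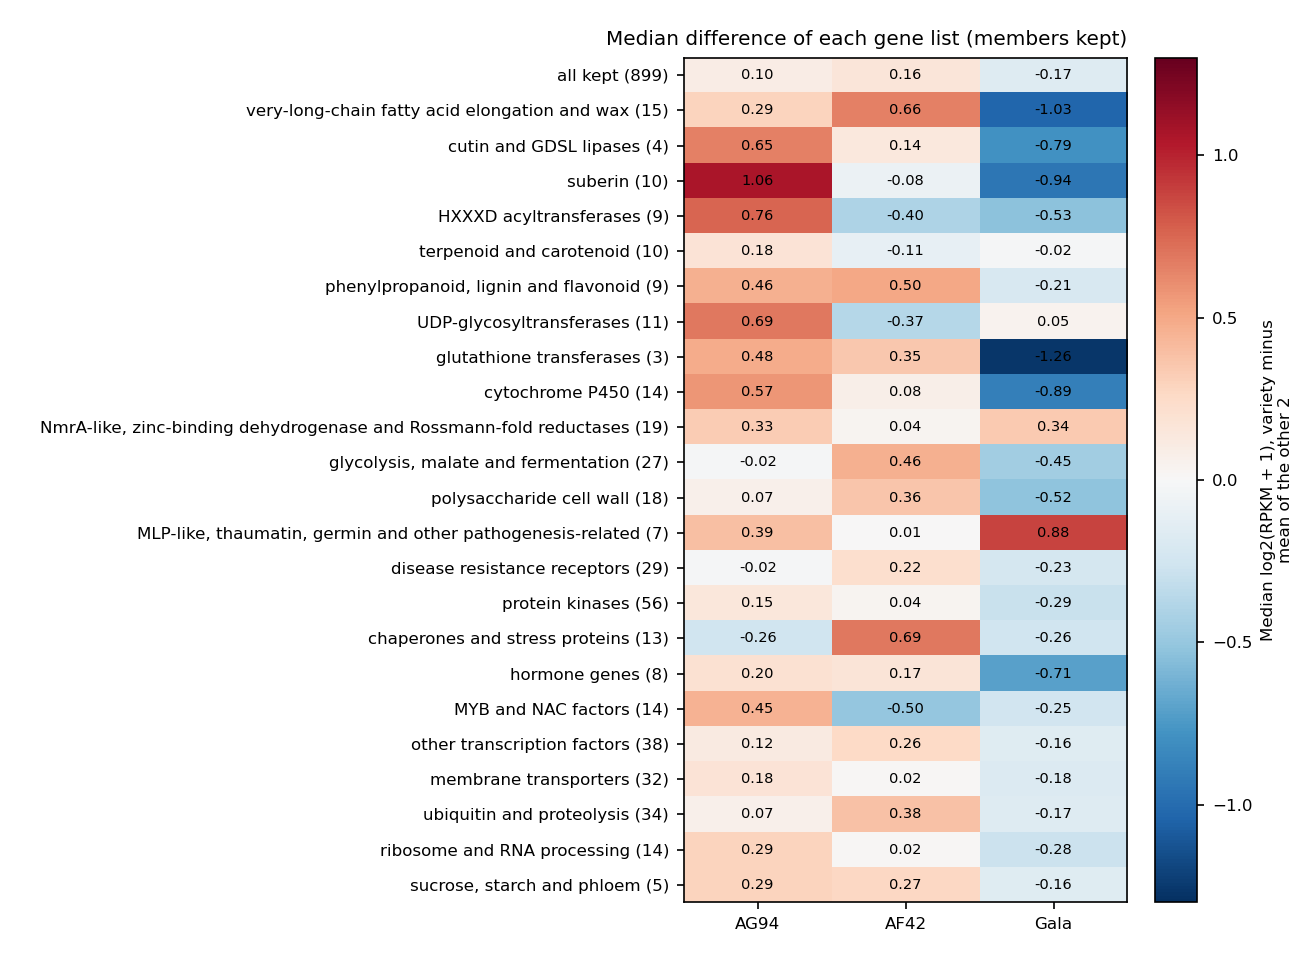
Median difference on the log2(RPKM + 1) scale between a variety and the mean of the other 2, for all kept genes and for 23 function lists (rows, number of kept members in brackets) in AG94, AF42 and Gala (columns). Suberin is highest in AG94 at 1.06, fatty acid elongation and wax lowest in Gala at -1.03, and chaperones highest in AF42 at 0.69. Medians of several lists, such as suberin, chaperones and cytochrome P450, include genes that passed the read filter only through the variety where they were high.

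Gene copies that share an Arabidopsis match did not always differ between varieties in the same way. Among 96 matches with at least 2 kept copies, 49 had a copy called in a class, and in 26 of these the summed level of all copies fell in no class. An alpha/beta-hydrolase pair was one such case. MDP0000430391 had 15.4 RPKM in AF42, against 186 RPKM in AG94 and 132 RPKM in Gala, whereas its partner MDP0000298959 had 236 RPKM in AF42, against 92.2 RPKM in AG94 and 94.6 RPKM in Gala. The sums of the pair, 252 RPKM in AF42, 278 RPKM in AG94 and 226 RPKM in Gala, were alike. For CYP86A1, KCS10, TBL39 and the lactate/malate dehydrogenase pair that was low in Gala the copies ran together, and their sums stayed in a class, with 23.6 RPKM in AG94, against 5.11 RPKM in AF42 and 2.70 RPKM in Gala for CYP86A1. How reads of copies that differ between varieties map to a single reference was not tested.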

How the data were processed

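Total RNA from skin with an RNA integrity number of at least 8 was made into mRNA libraries, as the labels' protocols state. For 1261 gene models, the authors deposited a single table, listed for a russeted against waxy difference, with CLC Genomics Workbench 6.5 named in the submitters' processing notes. Per the file headers it holds total and unique gene read counts, RPKM values, gene length (an other measure) and the authors' log2 fold change, which was used only in the closing observations. Aligner settings and strand use were not found in the labels. The mapped reads of a library follow from the reads, RPKM and length of any gene, and were taken as the median of the estimates of genes that had 200 reads or more. Genes with under 50% unique reads are uncertain, since reads of near-identical copies may be split. The 1261 identifiers matched 0 entries of the RefSeq gene table of assembly GDT2T_hap1, so coordinates and sequences were not used here.

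Differences were taken on log2(RPKM + 1) without a model. Named genes were the 8 largest gaps per class, the 20 highest mean levels, and in each of 23 lists up to 2 called members and the most abundant. Marker genes and the genes MDP0000793357, ADH1, MDP0000278198, MDP0000143956, MDP0000568449, MDP0000298959, MDP0000149064, MDP0000542944, MDP0000227287, MDP0000222305, MDP0000602841, MYB102 and NAC038 were added outside that rule, the genes other than markers after their values were seen. The pyruvate kinase family gene MDP0000193389 was likewise added outside that rule after its values were seen. The members and lists were chosen with earlier results of these data known. Versions were R 4.3.3 with edgeR 4.0.16 (TMM factors only), Python 3.11.15, pandas 2.3.3 and numpy 2.4.6.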

Additional observations from a re-analysis of the deposited data

How the results depend on the processing

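Class counts were recomputed under 10 alternatives, of which the restriction to genes with at least 50% unique reads was chosen after seeing the data. A gap of 1.5 left 11 highest and 6 lowest genes in AG94, 12 and 23 in AF42, and 2 and 24 in Gala. Against the mean of the other 2 varieties there were 82 highest and 46 lowest in AG94, 103 highest in AF42, and 43 highest and 115 lowest in Gala. A pseudocount of 0.1 gave 47 highest in AG94 and 91 lowest in Gala, and without the read filter 37 were lowest in AG94 and 23 highest in Gala. The number highest in Gala was 21 with median-of-ratios and 23 with TMM factors, and 20 genes were highest in AG94 among those with at least 50% unique reads. The other 42 class counts stayed within 1.5 times those reported. Of 643 recomputed gaps of named genes 574 moved by no more than their counting error, 68 moved by more than it and 1 reversed. That error is wide for low genes. With a pseudocount of 0.1 the gap of MDP0000235696 in AF42 went from 3.42 to 5.13 and still counted among the 574. The reversed gap was that of HOS15 (MDP0000312017) in AG94, at -0.16 on unique reads. A change of the read filter alone cannot move a gap, and such changes gave 82, 71 and 80 of the 574. Of 82 gaps each, 16 moved with TMM factors, 14 with median-of-ratios factors and 15 on unique reads. Against the mean of the other 2 varieties 19 moved, and with a pseudocount of 0.1 4 moved. No paired analysis was possible because each variety has 1 library. Depth limits the low genes most, since a kept gene had a median of 108 reads in Gala, against 226 in AG94.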

Other observations

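The classes differed in how many of their genes have a higher russeted mean in the authors' deposited table. That share was 90.3% of the genes highest in AG94, 84.0% of those highest in AF42 and 84.6% of those highest in Gala, beside 65.3% of all 899 kept genes in the authors' deposited table. It was 57.1% of the genes lowest in AG94, 40.0% of those lowest in AF42 and 75.9% of those lowest in Gala in the authors' deposited table. These shares use the same 3 waxy libraries on both sides, and the genes were listed on them, so they are given as a description.

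Disease resistance receptor genes numbered 55 in the table, of which 29 were kept and 6 were called in a class, 2 highest in AF42, 1 lowest in AF42, 1 lowest in AG94 and 2 lowest in Gala, close to the 23.7% of all kept genes in any class. The most abundant, RPP1 (MDP0000827008), had 66.6 RPKM in AF42, 31.3 RPKM in AG94 and 41.6 RPKM in Gala. CYP707A1 (MDP0000291544), an abscisic acid 8'-hydroxylase, had 22.9 RPKM in AF42, against 50.1 RPKM in AG94 and 63.3 RPKM in Gala. AAT1 (MDP0000157113), an amino acid transporter, had 99.0 RPKM in AF42, against 242 RPKM in AG94 and 201 RPKM in Gala.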
